A study of Mus musculus with 42 samples.

Results

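The interleukin-1 family and the first steps of its signalling were described through 10 genes, taken by their annotated symbols from 14442 symbols on the array. The genes are the ligands Il1a, Il1b, Il1f6 and Il18, the antagonist Il1rn, the receptors Il1r1, Il1r2 and Il1rap, and the signalling proteins Myd88 and Irak1. They had 10 of 21997 probes on the first array design, 1 probe per gene, and 19 of 36924 probes on the second. Of the 10 genes, 9 were measured in enough samples to be tested, and Il18 is given as values.

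The samples were whole skin tumours and skin, each hybridised on a 2-colour array against a common pool of mouse reference RNA. They comprised 6 squamous cell carcinomas, which are malignant, 10 papillomas labelled high-risk and 9 papillomas labelled low-risk, which are benign, and 6 normal skins. All tumours were from female Sencar mice initiated at 7 to 8 weeks of age and given DMBA, a carcinogen that mutates the skin, and TPA, which promotes growth. The normal skin was untreated adult skin, and its labels give no strain or sex. Normal skin therefore differed from every tumour group in the treatment as well as in the lesion. It may also have differed in strain, sex or age, and these cannot be told apart. A further 10 papillomas carried no risk label and were hybridised on the second design. Some tumours share the number of their code and differ in a letter: the 10 high-risk papillomas carry 7 such numbers and the 9 low-risk papillomas 8. The labels do not say whether a number is a mouse, so tumours were counted separately and p-values measure the spread between these samples. With the shared code as a random block (consensus correlation -0.0186), the same members were called in each comparison.

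Interleukin-1 alpha and beta bind the receptor encoded by Il1r1, which pairs with the accessory protein encoded by Il1rap. The pair recruits the adaptor Myd88 and then the kinase Irak1, and the signal passes on to NF-kappaB and to inflammatory genes. Il1rn encodes an antagonist that occupies the receptor without signalling, and Il1r2 encodes a decoy receptor. Il1f6 encodes interleukin-36 alpha, a ligand made by keratinocytes that uses the same accessory protein. Keratinocytes hold stores of interleukin-1 alpha, myeloid cells are the main known source of interleukin-1 beta, and TPA is a known inducer of interleukin-1 in mouse epidermis.

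The promoters of Il1b and Il1a are shown because these genes lie next to each other on chromosome 2 and only Il1b passed the test against normal skin, and that of Irak1 because it was the only member to separate the carcinomas from both high-risk papillomas and normal skin. The sequences are from RefSeq on GRCm38.p6, from 250 bases before to 50 after the start of the gene, all on the minus strand: Il1b at chr2:129371090-129371389, Il1a at chr2:129309923-129310222 and Irak1 at chrX:74023872-74024171. Capitals mark the AP-1 motif TGANTCA in Il1a, 12 bases before the start (position -12), and an NF-kappaB motif in Irak1 (position -18).
Il1b: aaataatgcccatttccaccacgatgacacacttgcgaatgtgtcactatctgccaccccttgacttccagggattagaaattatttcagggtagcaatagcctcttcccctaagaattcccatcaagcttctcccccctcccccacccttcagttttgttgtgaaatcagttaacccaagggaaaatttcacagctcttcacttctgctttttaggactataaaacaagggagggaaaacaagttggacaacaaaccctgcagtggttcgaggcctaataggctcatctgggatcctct
Il1a: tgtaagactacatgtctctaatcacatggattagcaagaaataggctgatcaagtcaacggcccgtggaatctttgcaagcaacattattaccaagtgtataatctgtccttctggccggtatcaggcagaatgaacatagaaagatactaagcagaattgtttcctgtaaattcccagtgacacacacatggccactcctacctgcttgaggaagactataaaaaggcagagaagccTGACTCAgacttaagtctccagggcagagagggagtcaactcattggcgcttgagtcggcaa
Irak1: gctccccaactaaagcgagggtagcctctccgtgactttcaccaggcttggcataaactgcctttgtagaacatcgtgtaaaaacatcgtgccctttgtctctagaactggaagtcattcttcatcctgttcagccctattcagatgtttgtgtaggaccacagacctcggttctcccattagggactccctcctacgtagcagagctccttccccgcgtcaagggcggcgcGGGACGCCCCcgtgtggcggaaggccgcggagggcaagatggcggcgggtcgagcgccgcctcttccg
Both motifs were searched on both strands, and they did not overlap each other. The AP-1 motif was found in 7.81% of 32851 promoters and the NF-kappaB motif in 8.46%. The shown Il1b window held neither. Of the other members with a promoter in the table, Il1rn held the AP-1 motif and Il1r1 the NF-kappaB motif, each in 1 of its listed promoters. Il1f6 is not shown.

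Levels are log2 ratios of sample over reference, centred on the median of each array, so a level of 0 is the level of the pool relative to the average gene. The base is the amount of each gene's own RNA in the common pool, so levels of different genes are not compared. Groups were compared in 1 model with moderated variances (limma), and a difference was called at a Benjamini-Hochberg adjusted p under 0.05 over 18904 probes. In whole tissue, more cells of a type and more RNA per cell cannot be told apart.

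Some facts of the arrays touch every comparison. The pattern of empty probes divided the labelled arrays into 5 sets, named A to E, and these sets were unevenly filled by the groups. Set B held 7 arrays, all of low-risk papillomas. Set E held 4 arrays, all of high-risk papillomas. Of the mixed sets, A took 1 high-risk papilloma with 4 skins, C took 2 carcinomas, 4 high-risk papillomas and 1 skin, and D took 4 carcinomas, 1 high-risk papilloma, 3 low-risk papillomas and 1 skin. The median SD of an array was 0.88 in carcinomas, 1.25 in high-risk papillomas, 1.39 in low-risk papillomas and 0.94 in normal skin. Carcinoma 6 and normal skin 1 were nearly identical (r = 0.984 over the probes of both arrays, with probes not being replicates, and a median absolute difference of 0.07 against 0.18 for the next closest pair), and results that rest on them are given with and without both. Low-risk papilloma 1 is the mean of 2 arrays that share a code, the second with dyes swapped and with another papilloma number in its title, and they correlated at only 0.306. For Il1b the 2 arrays gave 3.64 and 1.99, for Il1f6 1.65 and 3.69, and for Il18 2.57 and 0.62, so whether they hold 1 tumour is in doubt.

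**Figure D1:**
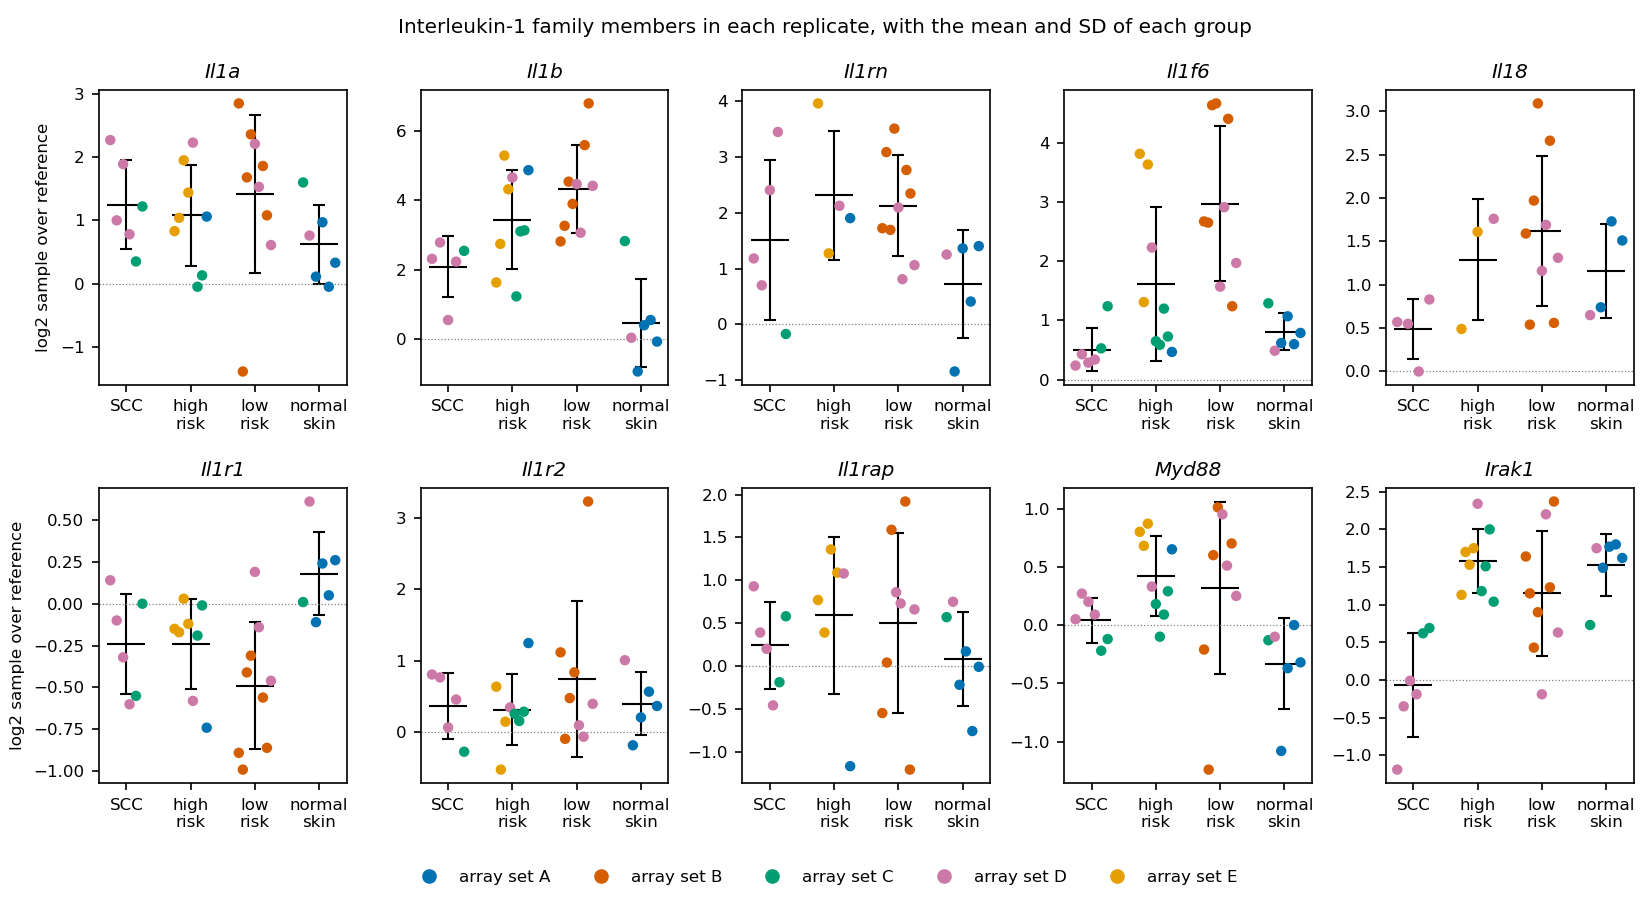
Level of each of the 10 members (log2 sample over reference, vertical axis) in every replicate with a value, for squamous cell carcinomas (SCC), high-risk papillomas, low-risk papillomas and normal skin. Points are replicates coloured by array set, the horizontal bar is the mean and the whiskers the SD. Il1b is lowest in normal skin, Il1f6 is highest in low-risk papillomas, and Irak1 is lowest in carcinomas.

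Il1b, the secreted ligand, was higher in both papilloma groups than in normal skin. In high-risk papillomas 1 to 5 its log2 level was 1.64, 2.75, 5.29, 4.32 and 4.66, and in high-risk papillomas 7 to 10 it was 1.24, 3.11, 3.14 and 4.87, with no value in papilloma 6. In the 9 low-risk papillomas it ran from 2.82 through a median of 4.42 to 6.79. In normal skin it was 2.83, 0.05, -0.92, 0.41, 0.56 and -0.06. Normal skin 1, of the near-identical pair, was the high value, and the other 5 skins lay below every papilloma. The 5 carcinomas with a value gave 2.32, 2.79, 0.56, 2.24 and 2.55, and only carcinoma 3 was at the level of those skins.

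The mean level of Il1b was 4.32 ± 1.27 in low-risk papillomas (SD, n = 9) and 0.48 ± 1.26 in normal skin (SD, n = 6), a log2 difference of 3.84 ± 0.63 (SE), or 14.3-fold (limma adjusted p = 0.000593). All 9 low-risk papillomas were above the mean of normal skin, and 8 of them were above its highest value. In high-risk papillomas the mean was 3.45 ± 1.43 (SD, n = 9), which was 2.97 ± 0.63 (SE) above normal skin on the log2 scale, or 7.83-fold (limma adjusted p = 0.00683). Without the near-identical pair these differences were 4.31 and 3.44. Both remained past the threshold when any 1 of the 31 replicates was left out.

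Array set moved with this result. A block for the array set gave a log2 difference of Il1b of 3.31 in low-risk papillomas (adjusted p = 0.574) and 2.84 in high-risk papillomas (adjusted p = 0.192), so neither was called. That fit called 2 and 12 of all probes in the low-risk and high-risk comparisons with normal skin. Within set A, high-risk papilloma 10 had 4.87 against a mean of 0.0 ± 0.66 in 4 normal skins (SD). Within set D, 3 low-risk papillomas averaged 3.99 ± 0.80 (SD) and high-risk papilloma 5 had 4.66, against 0.05 in the 1 normal skin. Within set C the order turned, with 2.50 ± 1.08 in 3 high-risk papillomas (SD) and 2.83 in normal skin 1, which belongs to the near-identical pair.

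The carcinomas averaged 2.09 ± 0.88 for Il1b (SD, n = 5). Their log2 difference was -2.22 from low-risk papillomas (adjusted p = 0.0845), -1.35 from high-risk papillomas (adjusted p = 0.482) and 1.62 from normal skin (adjusted p = 0.372), and none was called. All 5 carcinomas lay below the lowest low-risk papilloma, as they also did within set D, where 4 carcinomas averaged 1.98 ± 0.98 and 3 low-risk papillomas 3.99 ± 0.80 (SD). The log2 difference from low-risk papillomas was -0.55 after scale normalization and -0.64 after quantile normalization, neither called. With array weights it was -2.06 (adjusted p = 0.0211) and that from normal skin 1.69 (adjusted p = 0.0144), both called.

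Il1f6, the interleukin-36 ligand of keratinocytes, was higher in low-risk papillomas than in carcinomas or normal skin. Its log2 level was 0.24, 0.43, 0.29, 0.34, 0.53 and 1.24 in the carcinomas. In the low-risk papillomas it was 2.67, 2.65, 4.63, 4.66 and 1.57 in papillomas 1, 2, 4, 5 and 6, and 2.91, 4.40, 1.24 and 1.97 in papillomas 7 to 10. In normal skin it was 1.29, 0.49, 0.62, 1.07, 0.60 and 0.79. Every carcinoma lay below every low-risk papilloma, though carcinoma 6 and low-risk papilloma 9 are both printed as 1.24.

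The mean of Il1f6 was 0.51 ± 0.37 in carcinomas (SD, n = 6) and 2.97 ± 1.31 in low-risk papillomas (SD, n = 9), so it was lower in carcinomas by a log2 difference of -2.46 ± 0.52 (SE), or 5.48-fold (limma adjusted p = 0.0184). Low-risk papillomas were above normal skin, at 0.81 ± 0.31 (SD, n = 6), by 2.16 ± 0.52 (SE) on the log2 scale, or 4.46-fold (limma adjusted p = 0.0109). Carcinomas and normal skin differed by -0.30 (95% interval -1.47 to 0.88, adjusted p = 0.95). Without the near-identical pair the 2 called differences were -2.60 and 2.26, and both passed. Without carcinoma 3 the adjusted p of the difference between carcinomas and low-risk papillomas was 0.0623.

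High-risk papillomas spread between those levels of Il1f6. The values were 3.81, 1.31, 3.63 and 2.23 in high-risk papillomas 1, 2, 3 and 5, and 0.65, 0.59, 1.20, 0.73 and 0.47 in papillomas 6 to 10, with papilloma 4 empty. The 4 high-risk papillomas of set C and the 1 of set A were the 5 low values, and all 5 lay below the lowest low-risk papilloma. The mean was 1.62 ± 1.30 (SD, n = 9), a log2 difference of -1.34 from low-risk papillomas (adjusted p = 0.145). With array weights that difference was -1.98 and was called (adjusted p = 0.00282). In the main fit the high-risk mean was 0.81 above normal skin (adjusted p = 0.41).

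Array set and scale touch Il1f6 as well. Within set D, 4 carcinomas averaged 0.33 ± 0.08 and 3 low-risk papillomas 2.15 ± 0.69 (SD), with no overlap. A block for the array set gave log2 differences of -1.65 for carcinomas against low-risk papillomas (adjusted p = 0.504) and 1.15 for low-risk papillomas against normal skin (adjusted p = 0.871). The difference between carcinomas and low-risk papillomas was -1.72 after scale normalization (adjusted p = 0.0858) and -1.68 after quantile normalization (adjusted p = 0.0537). That between low-risk papillomas and normal skin was 1.54 after scale normalization, where its adjusted p (0.05 as rounded) just missed the threshold, and 1.44 after quantile normalization, where it passed (adjusted p = 0.0348).

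Il1a, the ligand stored in keratinocytes, passed the test in no comparison. It averaged 1.25 ± 0.71 in carcinomas (SD, n = 6), 1.08 ± 0.80 in high-risk papillomas (n = 8), 1.42 ± 1.25 in low-risk papillomas (n = 9) and 0.62 ± 0.62 in normal skin (n = 6). Low-risk papilloma 2 was at -1.39 while the other 8 ran from 0.61 to 2.85. Without that papilloma, low-risk papillomas were 1.16 above normal skin on the log2 scale (adjusted p = 0.0479), against 0.80 with it (adjusted p = 0.305).

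Il1rn, the antagonist, also passed in no comparison. Its mean was 1.51 ± 1.43 in carcinomas (SD, n = 5), 2.31 ± 1.15 in high-risk papillomas (n = 4), 2.12 ± 0.90 in low-risk papillomas (n = 9) and 0.72 ± 0.96 in normal skin (n = 5). The high-risk mean rests on 4 of 10 tumours, since 6 were empty. Against normal skin the log2 difference was 1.59 in high-risk papillomas (95% interval 0.19 to 3.00, adjusted p = 0.185) and 1.40 in low-risk papillomas (interval 0.23 to 2.57, adjusted p = 0.131).

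Il18, a ligand released after cleavage by caspases, had a value in 20 of 31 replicates and was not tested. Its level was 0.57, 0.55, 0.0 and 0.83 in carcinomas 1 to 4, 0.49, 1.61 and 1.76 in 3 high-risk papillomas, and 0.54 to 3.09 around a median of 1.59 in the 9 low-risk papillomas. In 4 normal skins it ran from 0.65 to 1.73. The carcinomas with a value overlapped the low-risk papillomas. With the filter loosened to 2 values per group, carcinomas were at -1.13 relative to low-risk papillomas (adjusted p = 0.182).

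Among the receptors, only Il1r1 passed, in 1 comparison. Its level was -0.89, -0.99, -0.41, -0.31 and 0.19 in low-risk papillomas 1, 2, 4, 5 and 6, and -0.14, -0.56, -0.86 and -0.46 in papillomas 7 to 10. Normal skin gave 0.01, 0.61, -0.11, 0.24, 0.05 and 0.26. Of the 9 low-risk papillomas, 8 lay below every normal skin and papilloma 6 lay among them. The mean was -0.49 ± 0.38 in low-risk papillomas and 0.18 ± 0.25 in normal skin (SD), a log2 difference of -0.67 ± 0.19 (SE), or 1.59-fold lower (limma adjusted p = 0.0291). The call was lost without normal skin 2, 4 or 6, with adjusted p-values of 0.0773, 0.0617 and 0.0682. It was also lost after scale normalization (adjusted p = 0.0706), after quantile normalization (0.0745) and with only the 2 groups fitted (0.112).

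The signalling receptor Il1r1 averaged -0.24 ± 0.30 in carcinomas (SD, n = 6) and -0.24 ± 0.27 in high-risk papillomas (n = 8), and neither group differed from normal skin past the threshold (adjusted p = 0.476 and 0.232). A block for the array set gave a low-risk difference of -0.52 (adjusted p = 0.825).

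The decoy receptor Il1r2 had group means from 0.32 in high-risk papillomas to 0.75 in low-risk papillomas, with 0.37 in carcinomas and 0.40 in normal skin. The low-risk mean held 1 high value, 3.23 in papilloma 9, where the other 7 ran from -0.09 to 1.12. The accessory protein Il1rap averaged 0.24 in carcinomas, 0.59 in high-risk papillomas, 0.50 in low-risk papillomas and 0.08 in normal skin. Single tumours of the papilloma groups spread widely for Il1rap, from -1.17 to 1.36 in the high-risk group and from -1.21 to 1.92 in the low-risk group. For both genes the 95% intervals of all 6 differences held 0.

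Irak1, the kinase that acts after Myd88, was lower in carcinomas than in high-risk papillomas and normal skin. Its log2 level was -1.19, -0.35, -0.01, -0.19, 0.62 and 0.69 in the carcinomas. In the high-risk papillomas it was 1.13, 1.70, 1.53, 1.75 and 2.34 in papillomas 1 to 5 and 1.18, 1.51, 2.00 and 1.04 in papillomas 6 to 9. Normal skin gave 0.73, 1.75, 1.49, 1.77, 1.80 and 1.62. All 6 carcinomas lay below every high-risk papilloma and every normal skin, and the closest values were those of carcinoma 6 and normal skin 1.

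The mean of Irak1 was -0.07 ± 0.69 in carcinomas (SD, n = 6) and 1.58 ± 0.43 in high-risk papillomas (SD, n = 9), a log2 difference of -1.65 ± 0.33 (SE), or 3.13-fold lower (limma adjusted p = 0.0498). Against normal skin, at 1.53 ± 0.41 (SD, n = 6), carcinomas were lower by a log2 difference of -1.60 ± 0.36 (SE), or 3.02-fold (limma adjusted p = 0.0203). Without the near-identical pair the differences were -1.80 (adjusted p = 0.0238) and -1.91 (adjusted p = 0.00396).

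The call against high-risk papillomas sat at the threshold: it held in 10 of 31 fits that left out 1 replicate, with log2 differences from -1.80 to -1.42 and adjusted p-values from 0.0224 to 0.2. That against normal skin held in 26 of 31 and was lost without carcinoma 1 or 2 or without normal skin 2, 5 or 6. Low-risk papillomas averaged 1.15 ± 0.83 for Irak1 (SD, n = 9) and ran from -0.19 to 2.37. Carcinomas differed from them by -1.22 (adjusted p = 0.0563), which was called when high-risk papilloma 5, low-risk papilloma 4, low-risk papilloma 6 or the near-identical pair (adjusted p = 0.0463) was left out.

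Within set C, 2 carcinomas averaged 0.66 ± 0.05 for Irak1 and 4 high-risk papillomas 1.43 ± 0.43 (SD), without overlap. Within set D, 4 carcinomas averaged -0.44 ± 0.52 (SD), against 2.34 in the 1 high-risk papilloma and 1.75 in the 1 normal skin. Against normal skin in set C the 2 carcinomas differed little, at 0.66 against 0.73 in normal skin 1, and both arrays of the near-identical pair lie in that set. A block for the array set gave log2 differences of -1.65 from high-risk papillomas (adjusted p = 1.0) and -1.30 from normal skin (adjusted p = 0.645). Before adjustment the limma p of the first was 0.000702. That fit called 0 of 18903 probes against high-risk papillomas and 10 of 18901 against normal skin.

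The adaptor Myd88 passed in no comparison of the main fit. It was 0.05, 0.27, 0.20, 0.09, -0.22 and -0.12 in carcinomas, and -0.13, -0.10, -1.08, -0.37, 0.0 and -0.32 in normal skin. High-risk papillomas ran from -0.10 through a median of 0.33 to 0.87 and low-risk papillomas from -1.24 through 0.56 to 1.01. Of 9 high-risk papillomas, 8 were above every normal skin, with a log2 difference of 0.75 (adjusted p = 0.0895), which passed without low-risk papilloma 2 (adjusted p = 0.025) and after scale normalization (0.72, adjusted p = 0.0346). That difference was also called after quantile normalization, with array weights and with only the 2 groups fitted. A block for the array set gave 0.62 (adjusted p = 0.488). Low-risk papillomas differed from normal skin by a similar 0.65 (adjusted p = 0.129), and by 0.88 without low-risk papilloma 2 (adjusted p = 0.00923). With the block their difference was 0.73 (adjusted p = 0.831), and with array weights it was 0.78 and was called (adjusted p = 0.00674).

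**Figure D2:**
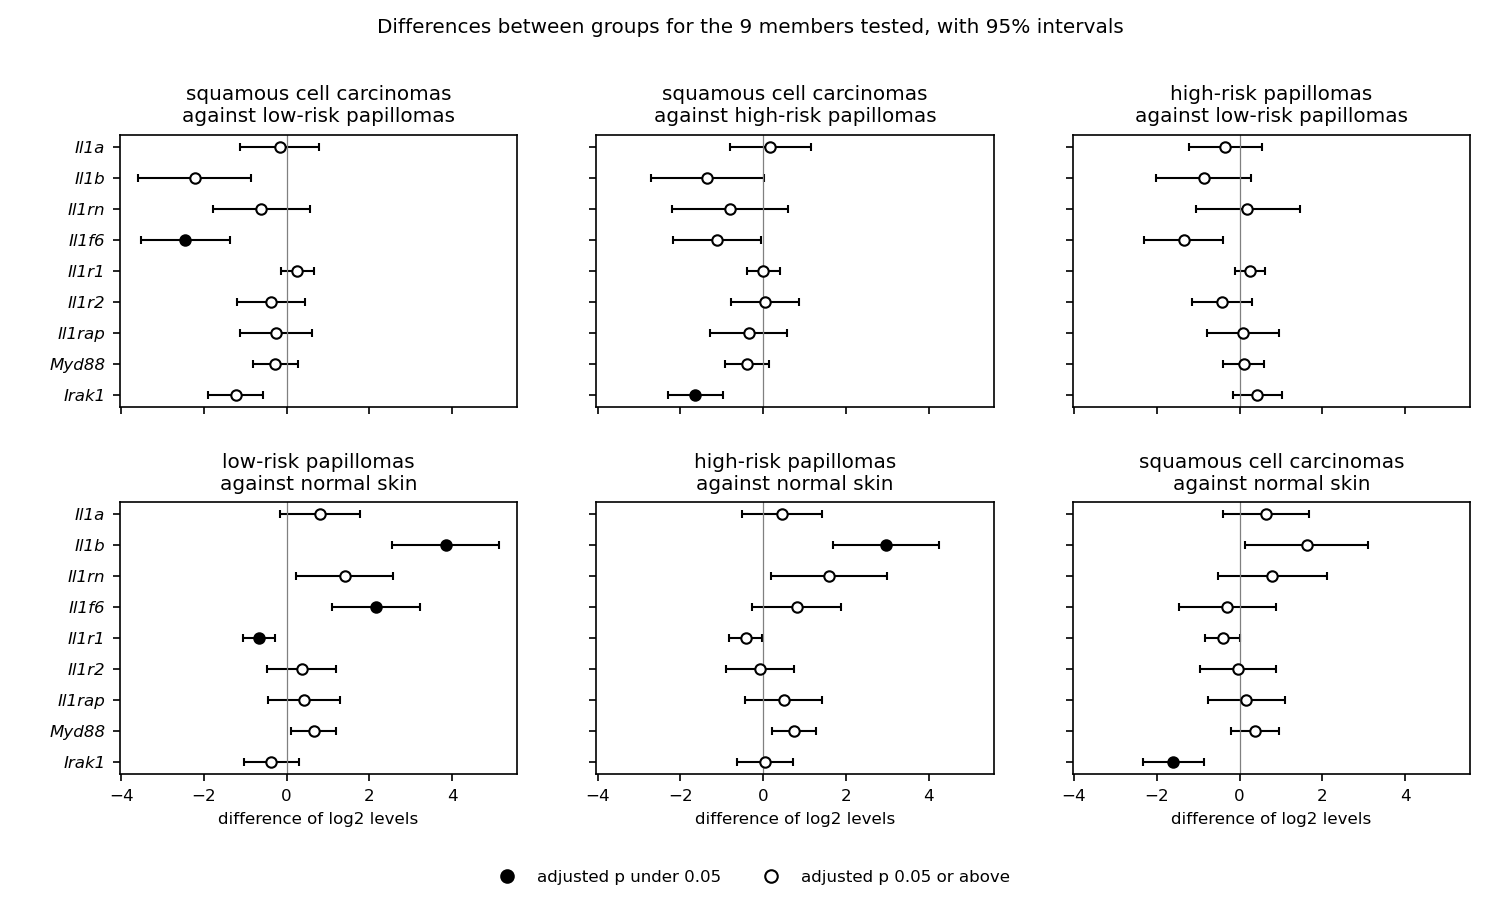
Difference of log2 levels (horizontal axis) for the 9 tested members in each of the 6 comparisons, with 95% intervals. Filled points passed an adjusted p of 0.05 and open points did not. Filled points are Il1f6 for carcinomas against low-risk papillomas, Irak1 for carcinomas against high-risk papillomas and normal skin, Il1b for both papilloma groups against normal skin, and Il1f6 and Il1r1 for low-risk papillomas against normal skin.

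Counted over the family, 1 of 9 tested members passed for carcinomas against low-risk papillomas, where 1.12% of all probes did. For carcinomas against high-risk papillomas it was 1 of 9 and 0.0423% of all probes, and for high-risk against low-risk papillomas none of 9 and 0.667%. At an unadjusted p under 0.05, 1 member differed between the papilloma groups (Il1f6). Against normal skin, 3 of 9 passed in low-risk papillomas, where 7.55% of all probes passed, 1 of 9 in high-risk papillomas, where 5.01% passed, and 1 of 9 in carcinomas, where 1.16% passed.

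The median log2 difference of the 9 members was -0.38 for carcinomas against low-risk papillomas and also against high-risk papillomas, where all probes had a median of -0.01. Against normal skin it was 0.65 in low-risk papillomas, 0.50 in high-risk papillomas and 0.16 in carcinomas, beside medians of -0.02 to 0.0 over all probes. Carcinomas and low-risk papillomas did not overlap for 2 members, Il1b and Il1f6, where 0.973% of all probes did not overlap. Carcinomas did not overlap high-risk papillomas or normal skin for Irak1, beside 0.772% and 4.01% of all probes. The comparisons share their groups, so those that share normal skin or carcinomas are not independent of each other.

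**Figure D3:**
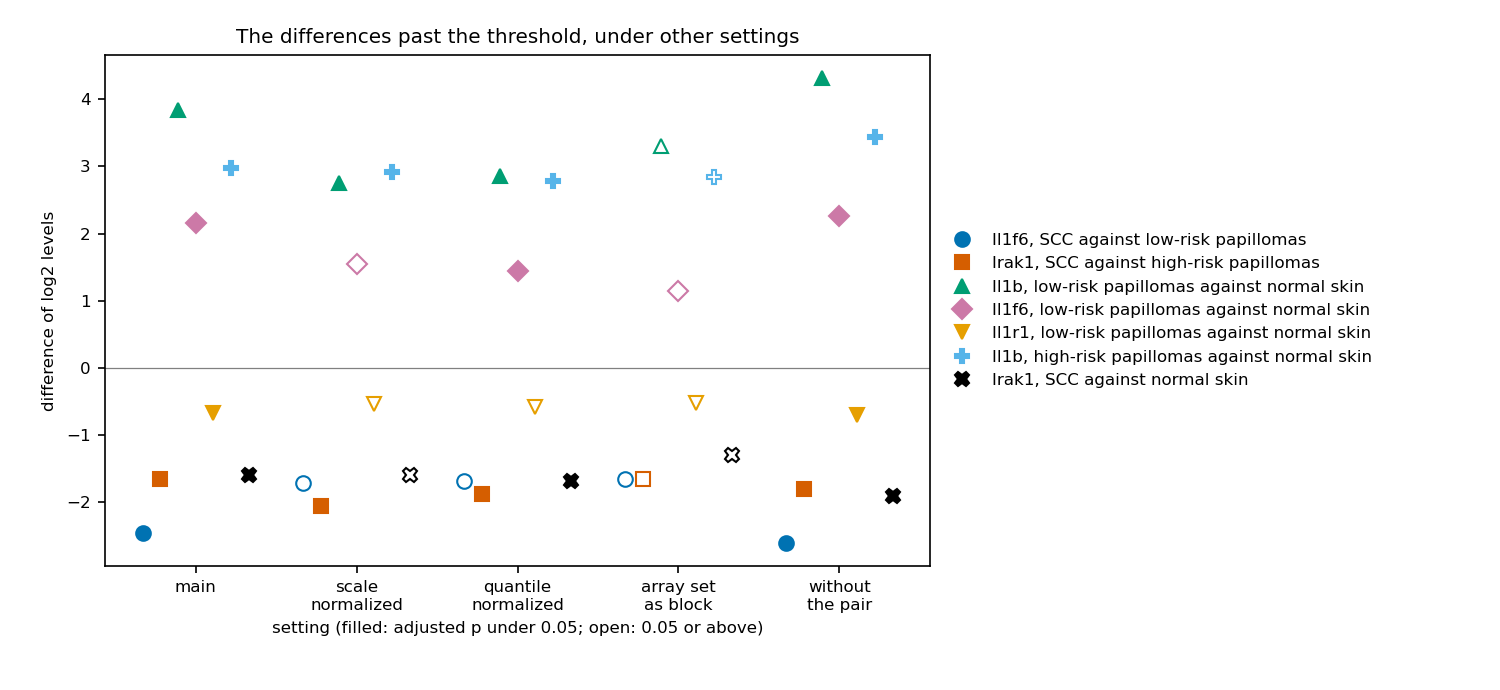
The 7 differences past the threshold (log2, vertical axis) in the main fit and after scale normalization, quantile normalization, a block for the array set, and removal of carcinoma 6 and normal skin 1. Filled marks passed an adjusted p of 0.05. No mark changed sign, and with the array set as a block none was filled.

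Other genes of the pathway passed in few of the comparisons, and their counts stand beside 7.55% of all probes called for low-risk papillomas, 5.01% for high-risk papillomas and 1.16% for carcinomas, each against normal skin. Of 3 tested further ligands and antagonists, Il33, an alarmin of epithelial cells, was higher in low-risk papillomas, at 2.01 ± 0.86 (SD, n = 9), than in normal skin, at 0.82 ± 0.28 (n = 6), by 1.19 on the log2 scale (adjusted p = 0.025). It was lower in high-risk papillomas, at 0.80 ± 0.54 (n = 10), than in low-risk papillomas by a log2 difference of -1.21 (adjusted p = 0.0433, and 0.0547 without the near-identical pair). Il1f5, which encodes the antagonist of the interleukin-36 receptor, averaged 0.33 ± 0.63 in carcinomas (n = 4) and 3.21 ± 1.88 in low-risk papillomas (n = 9), a log2 difference of -2.88 that did not pass (adjusted p = 0.0967). Of 3 tested further receptors, Sigirr, an inhibitory member, was 1.02 higher in low-risk papillomas than in normal skin (adjusted p = 0.0253). The interleukin-36 receptor gene Il1rl2 passed nowhere, with means from 0.43 in high-risk papillomas to 0.61 in carcinomas.

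Of 7 tested proteins next to Irak1 and Myd88, 1 passed in each of 2 comparisons, where 1.12% (carcinomas against low-risk papillomas) and 7.55% (low-risk papillomas against normal skin) of all probes did. Peli1, a ubiquitin ligase that acts on Irak proteins, averaged -0.31 ± 0.25 in carcinomas (SD, n = 5) and 0.82 ± 0.49 in low-risk papillomas (n = 9), a log2 difference of -1.13 (adjusted p = 0.0271). Tab2, which links the complex to its kinase, averaged 0.59 ± 0.50 in low-risk papillomas (n = 8) and -0.58 ± 0.56 in normal skin (n = 6), a log2 difference of 1.18 (adjusted p = 0.00374). Without the near-identical pair Tab2 also passed in high-risk papillomas against normal skin (0.80, adjusted p = 0.046). The median difference of the 7 was -0.33 for carcinomas against low-risk papillomas and 0.28 for low-risk papillomas against normal skin.

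Of 6 tested genes of ligand processing, Capn2, a calpain of the family that cleaves interleukin-1 alpha, was 0.84 higher in low-risk papillomas than in normal skin (adjusted p = 0.00608) and lower in high-risk than in low-risk papillomas by a log2 difference of -0.97 (adjusted p = 0.00858). Pycard, the adaptor of inflammasomes, was 0.95 higher in high-risk papillomas than in normal skin (adjusted p = 0.0254). Of 12 NF-kappaB genes, Nfkbib, an inhibitor of NF-kappaB, was the 1 that passed, at -0.66 in low-risk papillomas against normal skin (adjusted p = 0.0357, and 0.0612 without the near-identical pair). That is 1 of 12, near the 7.55% of all probes called there. Without the pair, Nfkbiz passed in carcinomas against normal skin (-1.94, adjusted p = 0.0274) and Rel in high-risk papillomas against normal skin (1.00, adjusted p = 0.046).

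Of 15 tested genes that interleukin-1 or interleukin-36 can induce in skin, 5 were higher than in normal skin in high-risk papillomas, where 5.01% of all probes were called, 3 in low-risk papillomas (7.55%) and 1 in carcinomas (1.16%), and none was lower. Without the near-identical pair the counts were 6, 4 and 3, with 7.21%, 8.07% and 2.56% of all probes called. In carcinomas S100a8 (3.24, adjusted p = 0.0141) and Mmp3 (1.64, adjusted p = 0.0393) then passed too. S100a9, a calcium-binding protein of neutrophils and activated keratinocytes, averaged 3.13 ± 0.93 in carcinomas (SD, n = 4), 4.97 ± 0.79 in high-risk papillomas (n = 6), 4.40 ± 0.94 in low-risk papillomas (n = 9) and -1.22 ± 0.90 in normal skin (n = 5), and it passed in all 3 comparisons with normal skin. S100a8, its partner, was 4.03 higher in high-risk and 4.47 higher in low-risk papillomas (adjusted p = 0.00109 and 0.000332). Mmp3, a matrix metalloproteinase, was higher by 1.54 and 1.77 (adjusted p = 0.0133 and 0.0042).

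Icam1, an adhesion molecule for leukocytes, was higher in high-risk papillomas, at 0.86 ± 0.61 (SD, n = 9), than in low-risk papillomas, at -0.55 ± 0.54 (n = 8), by 1.41 on the log2 scale (adjusted p = 0.00925), and by 1.10 than in normal skin (adjusted p = 0.0205). Cxcl1, a chemokine for neutrophils, was 1.26 higher in high-risk papillomas than in normal skin (adjusted p = 0.042). The median difference of the 15 genes against normal skin was 0.81 in high-risk papillomas, 0.95 in low-risk papillomas and 0.62 in carcinomas. With the array set as a block, 1 of the 6 pathway genes called in high-risk papillomas against normal skin passed (S100a9, 5.40, adjusted p = 0.00318). None of the 8 called in low-risk papillomas, the 3 between papilloma groups or the 1 in either carcinoma comparison passed. Of all probes, that fit called 12 in high-risk papillomas, 2 in low-risk papillomas and 10 in carcinomas, each against normal skin. It called 0 between papilloma groups and 1 for carcinomas against low-risk papillomas, so few genes of any kind passed.

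Markers of cell types moved with some of these results, and their part was not tested. The mean of 7 keratinocyte markers ran from 0.61 to 1.68 in carcinomas, 1.04 to 3.38 in high-risk papillomas, 1.05 to 2.89 in low-risk papillomas and 0.90 to 2.08 in normal skin. The direction of the ratios was set partly by keratinocyte probes, so these levels are no check of the tissue labels. The mean of 9 neutrophil markers ran from -0.39 to 0.26 in carcinomas, -1.59 to -0.08 in high-risk papillomas, -1.93 to -0.32 in low-risk papillomas and -0.66 to -0.16 in normal skin. By limma, 0 of 9 neutrophil and 0 of 8 macrophage and monocyte markers passed in any comparison. At an unadjusted p under 0.05, papillomas against normal skin had 1 neutrophil marker lower in each group and 1 macrophage marker higher in low-risk papillomas. By the same rule, carcinomas had 4 of 8 macrophage markers higher than in low-risk papillomas and 4 of 8 higher than in normal skin. Against high-risk papillomas it was 3 of 8. Of 9 neutrophil markers, 2 were higher in carcinomas than in each papilloma group. Against normal skin 1 was higher and 1 lower. Beside the lower Il1f6 and Irak1 in carcinomas, 2 of 7 keratinocyte markers were lower than in low-risk papillomas (median log2 difference -0.79) and 3 of 7 lower than in high-risk papillomas (-0.63) at an unadjusted p under 0.05, with none higher, and 0 of 7 passed the adjusted test in either. Irak1 was also lower in carcinomas than in normal skin, and there the keratinocyte median was only -0.10. In that comparison 2 of 7 were lower at an unadjusted p under 0.05, and 1 of 7 passed the adjusted test, as lower. For low-risk papillomas against normal skin, where Il1f6 was higher, the keratinocyte median was 0.55. There 2 of 7 were higher and 1 lower at an unadjusted p under 0.05, and 1 of 7 passed the adjusted test, as lower. The macrophage mean ran from -0.64 to 1.09 in carcinomas, -1.78 to -0.42 in high-risk papillomas, -1.64 to 0.65 in low-risk papillomas and -1.56 to -0.56 in normal skin. The mean of 3 skeletal muscle markers was -1.68 to 0.97 in low-risk papillomas and 0.26 to 2.72 in normal skin, and 1 of the 3 passed as lower there and in high-risk papillomas. The mean of 6 mast cell markers was -0.24 to 1.33 in low-risk papillomas and -0.40 to -0.05 in normal skin, with 3 of the 6 passing as higher. In that comparison 7.55% of all probes passed. T cell markers went both ways there (1 of 6 higher, 2 lower), 1 of 5 endothelium markers was lower and 1 of 3 adipocyte markers higher. In high-risk papillomas (5.01% of all probes), 1 of 7 keratinocyte markers passed as higher and 1 as lower. There 1 of 6 T cell markers was higher, and 1 of 6 fibroblast and 1 of 3 adipocyte markers were lower.

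Likeness across the replicates was sought only among genes with a value in every replicate where the member had one. Of 4364 such genes, the one most like Il1b was S100a8 (Pearson r = 0.87 over 29 replicates), followed by Prg3 (0.80) and Lce3c (0.80). Genes with more empty values, among them S100a9, were not compared. For Il1f6 the closest of 4337 genes were C1qtnf1 and Sppl2b (both 0.86) and Ccdc7b (0.84), over 30 replicates. For Irak1 the closest of 4338 were Spry1 (0.70), Cenpc1 (0.64) and Nr1d2 (0.63), a weaker likeness. Among the members, Il1f6 and Il18 had r = 0.68 over 20 replicates, Il1b and Myd88 0.65 over 27, and Il1b and Il1r1 -0.52 over 28. These are descriptions, since replicates share array sets and the spread of their arrays.

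**Figure D4:**
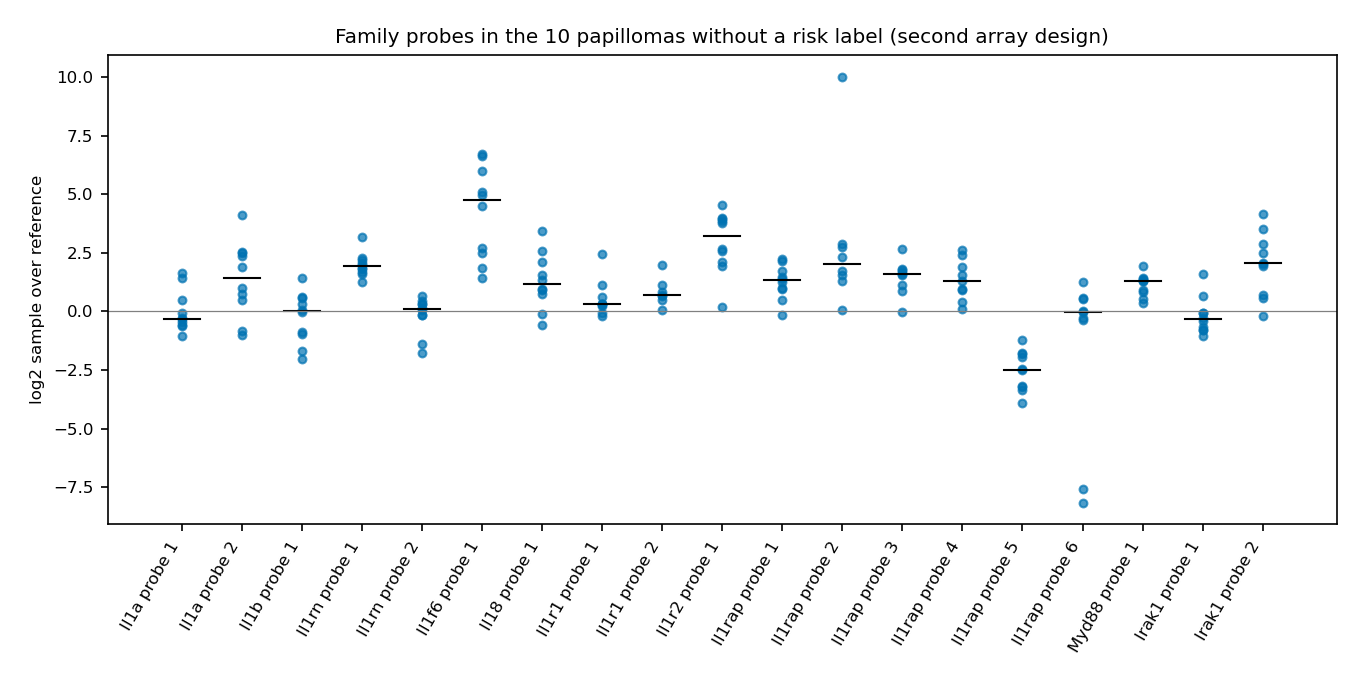
Level (log2 sample over reference, vertical axis) of the 19 family probes of the second design in the 10 papillomas without a risk label. Points are tumours and the black bar is the median. Il1f6, Il1r2, Myd88 and the first Il1rn probe are above 0 in all 10 tumours.

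In the 10 papillomas without a risk label, the Il1f6 probe gave 6.65, 2.51, 1.86, 2.69, 6.72, 5.10, 6.01, 4.99, 4.52 and 1.41, all above 0 with a median of 4.75. The tumours were uneven, with 6 above 4 and the other 4 below 3. The Il1b probe gave 0.32, -1.69, 1.42, -0.86, 0.06, 0.63, -2.03, -0.95, -0.03 and 0.56, with a median of 0.02, and 5 tumours lay above 0 and 5 below. These are other probes on another design, so their levels are not set against those of the labelled papillomas.

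Il1r2 ran from 0.17 to 4.54 with a median of 3.23 and was above 0 in all 10, as was Myd88, from 0.35 to 1.94. Il18 ran from -0.56 to 3.42. The first Il1r1 probe had a median of 0.31, with 7 of 9 measured tumours above 0. The second had a median of 0.70, with 7 of 7 above 0. Probes of 1 gene went apart for 4 members. The 2 Il1a probes had medians of -0.31 and 1.45, the 2 Il1rn probes 1.94 and 0.11, and the 2 Irak1 probes -0.34 and 2.05. Of 6 Il1rap probes, 4 had medians from 1.29 to 2.01, while the fifth was below 0 in all 10 tumours (-3.91 to -1.20) and the sixth ran from -8.18 to 1.26.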

How the data were processed

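Each RNA was hybridised with a universal mouse reference, per the labels' protocols. The authors deposited 1 value per probe, a log2 ratio of the channels, and their normalization is not given in the sources used here. The log base and direction are not stated. Cy5 over Cy3 is likely, since the median of 8 keratinocyte probes was below 0 on 31 of 31 labelled arrays with the sample in Cy3 and 1.5 on the swapped array. Signs were turned to sample over reference, arrays centred on their medians, and the arrays of 1 tumour averaged, which left 31 replicates. Probes needed at least 3 values per group and 70% of replicates, and 1 probe per symbol was kept. The 4 groups were fitted with limma 3.58.1 in R 4.3.3, and tables made with pandas 2.3.3. The fit was tested on simulated data with independent noise and no differences between array sets, so that test does not cover them. The text names the 10 members and every pathway gene called. It also names some of the genes with the 3 smallest p-values of their list, and the 3 genes most like Il1b, Il1f6 and Irak1. Members and lists were chosen with earlier results of these data known. Depth does not apply to arrays, and their number limits the precision. Replicate numbers did not pair samples: same-numbered samples of different groups correlated at a median r of -0.0245 (37 pairs), others at 0.01 (317 pairs), across genes. Alternatives were other normalizations, filters and probe summaries, blocks, weights, and leaving out replicates.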

Additional observations from a re-analysis of the deposited data

Results flagged for a closer look

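In 5 of 39 sets of 4 to 9 values, 1 sample lay far from the rest, and chance gives about 1 in 20 such sets. Il1b was 0.56 in carcinoma 3, where the next value was 2.24. Il1f6 was 1.24 in carcinoma 6, where the next was 0.53. Il1r2 was 3.23 in low-risk papilloma 9, with 1.12 next. Myd88 was -1.08 in normal skin 3, with -0.37 next. Irak1 was 0.73 in normal skin 1, with 1.49 next. Carcinoma 6 and normal skin 1 are the near-identical pair.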

How the results depend on the processing

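Counts are of the 9 tested members past the threshold, in the order carcinomas against low-risk papillomas (1), carcinomas against high-risk papillomas (1), high-risk against low-risk papillomas (0), and low-risk papillomas (3), then high-risk (1), then carcinomas (1), each against normal skin. With the array set as a block every count was 0, and of all probes that fit called only 1, 0, 0, 2, 12 and 10. Scale normalization gave 0, 1, 0, 1, 2 and 0, beside 0.614%, 0.37%, 0.196%, 7.5%, 8.32% and 3.78% of all probes. Quantile normalization gave 0 in the first comparison, 2 in low-risk and 2 in high-risk papillomas against normal skin. Array weights gave 3, 1, 1 (Il1f6), 4, 2 and 3. Without the near-identical pair the first count was 2, beside 0.756% of all probes. The share over all probes is not given for the other settings. For carcinomas against high-risk papillomas the count was 0 with the looser filter, with all probes, without the swapped array, with the replicate block and with only the 2 groups fitted. Fitting only the 2 groups gave 2 in low-risk and 2 in high-risk papillomas against normal skin. The range of database numbers as a block gave 3 in low-risk papillomas, 0 in high-risk papillomas and 0 in carcinomas, each against normal skin. Leaving out 1 replicate gave 0 to 2, 0 to 1, 0 to 0, 2 to 5, 1 to 2 and 0 to 1. Il1b in high-risk papillomas against normal skin reversed within array set C, at -0.33. The replicate block changed 2 called differences, Irak1 in carcinomas against high-risk papillomas (-1.48, adjusted p = 0.119) and Il1r1 in low-risk papillomas against normal skin (-0.64, adjusted p = 0.113), and the numbers do not pair the samples. Requiring a value in every replicate left no member to test. The causes of these changes were not tested.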
